A study of Mus musculus with 12 samples.

Results

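The purinergic receptors described here are 10 mouse genes, the ATP-gated channels P2rx2, P2rx3, P2rx4 and P2rx7 and the G protein-coupled receptors P2ry1, P2ry2, P2ry4, P2ry6, P2ry12 and P2ry14. They were read from all probes, other than control probes, whose gene name on the array was one of these symbols, which gave 56 probes for 10 of 19505 gene names. Expression was measured with 12 single-color exon arrays, 4 each for the apical, middle and basal turn of the cochlea of male C57BL/6 mice aged 6 weeks, with no treatment or altered allele in any group. RNA came from dissected pieces of each turn, in which hair cells, spiral ganglion neurons and lateral wall tissue were mixed, and 25 ng of total RNA was labeled per array. All 4 arrays of a turn carried the same scan date, which differed between turns. Scan and turn therefore cannot be told apart in any comparison below. The study's methods give 4 mice and independent mouse samples within a turn, but the labels do not say which arrays of different turns share a mouse, and the p-values measure the spread between these arrays.

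Extracellular ATP is released into the cochlear fluids and acts on P2X and P2Y receptors. P2X receptors are trimeric cation channels that open when ATP binds, and P2Y receptors couple nucleotides to G proteins and often to calcium release inside the cell. In the cochlea, ATP is known to act on hair cells, supporting cells, spiral ganglion neurons and the stria vascularis, and P2X2 is known as a channel that shunts current out of the endolymph during loud sound. Some members, among them P2rx4, P2rx7, P2ry6 and P2ry12, are also known from macrophages and microglia.

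The 4 channel genes are covered by 11 to 15 probes each, laid along their exons, while each P2Y gene has 1 probe near the end of its transcript. The P2X genes are related, and their probes show it. The following probes, given 5′ to 3′ with the bases shared by all 4 in capitals, are the set of 1 probe per channel gene that lines up best without gaps. They are shown because the same stretch of the channel was read in each gene.
P2rx2 probe 10, chr5:110769687-110769746 (mm9, minus strand): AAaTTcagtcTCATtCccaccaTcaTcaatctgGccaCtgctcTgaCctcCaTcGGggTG
P2rx3 probe 10, chr2:84840481-84840540 (mm9, minus strand): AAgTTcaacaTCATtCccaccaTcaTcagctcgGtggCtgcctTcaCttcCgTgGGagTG
P2rx4 probe 10, chr5:123177414-123177473 (mm9, plus strand): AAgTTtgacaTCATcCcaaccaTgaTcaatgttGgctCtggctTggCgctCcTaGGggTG
P2rx7 probe 11, chr5:123123370-123123429 (mm9, plus strand): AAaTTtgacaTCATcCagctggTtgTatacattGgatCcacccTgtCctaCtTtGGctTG

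Of the 60 bases, 21 were the same in all 4 probes. P2rx2 and P2rx3 matched at 42 positions, P2rx4 matched each of them at 38, and P2rx7 matched P2rx4 at 34, P2rx2 at 29 and P2rx3 at 28. Probe numbers count from the 5′ end of the transcript, and mm9 is the genome build that the array files use.

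Between the apex and the base, 6 of the 10 receptors differed (limma's moderated contrast, Benjamini-Hochberg adjusted p under 0.05), against 39.2% of all genes tested, and in these same 6 the arrays of the 2 turns did not overlap, as in 38.3% of all genes. These 6 also passed limma's F test of the 3 turns, which 38.7% of all genes did. P2rx7 was greater in the apex, as were 17.6% of all genes, and P2rx4, P2ry2, P2ry6, P2ry12 and P2ry14 were greater in the base, as were 21.6%. The median log2 fold change (apical minus basal) was -0.31 over the 10 receptors and -0.04 over all genes. No receptor passed the F test with a 2-fold difference, the size that the study asked for, as 4.69% of all genes did. These are bulk pieces of tissue, in which fewer cells of a type and less RNA per cell cannot be told apart. Signals below are intensities after each array was scaled to a common 75th percentile, averaged over the probes of a gene on the log2 scale. Since each probe binds with its own strength, levels are compared between turns only, never between genes.

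**Figure D1:**
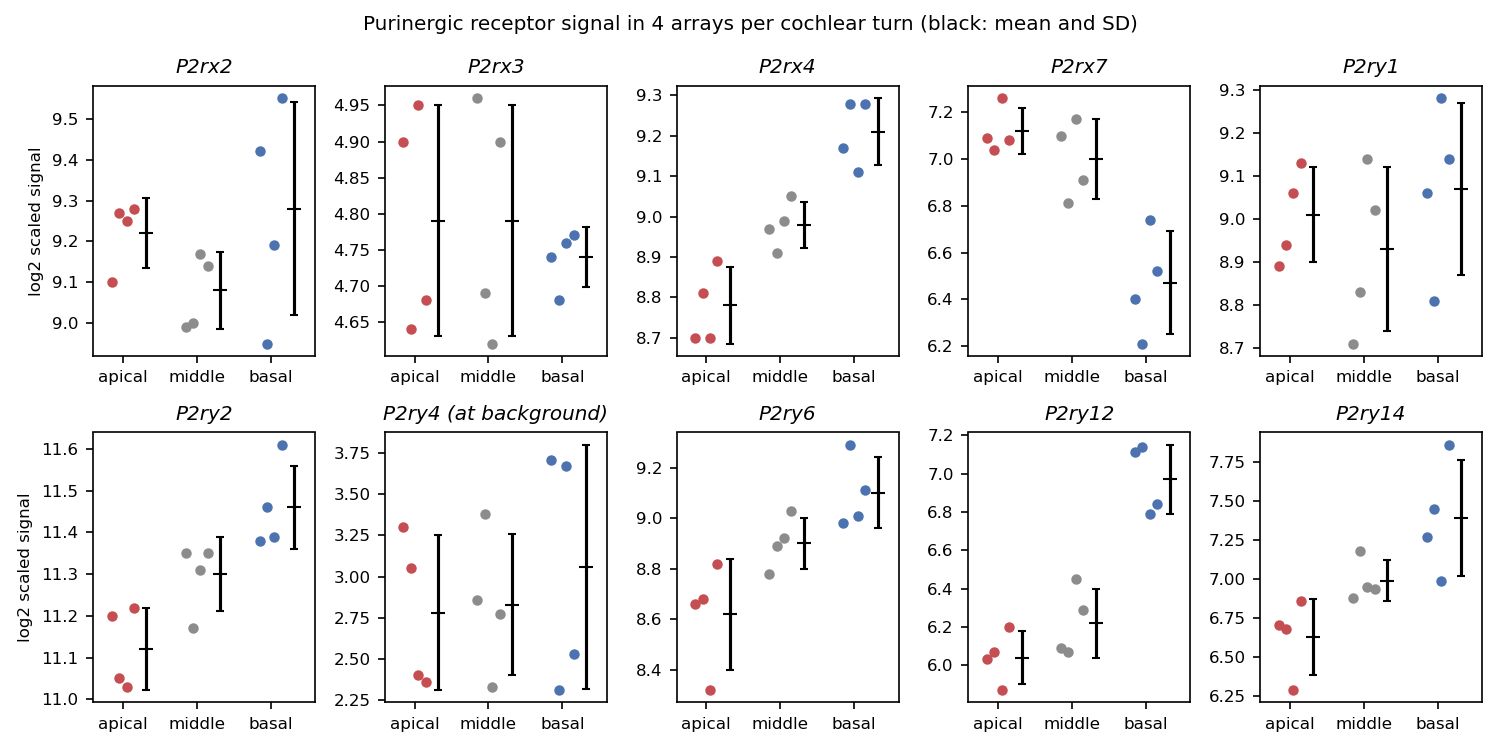
Each panel plots 1 receptor, with the log2 scaled signal on the vertical axis (each panel has its own range) and the turns on the horizontal axis; colored points are the 4 arrays of a turn and the black bar is their mean and SD. P2rx7 fell from apex to base, P2rx4, P2ry2, P2ry6, P2ry12 and P2ry14 were greater in the base than in the apex, and P2ry4 stayed at the background.

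Among the 4 channel genes, P2rx7 was the only one called greater in the apex. P2rx7 encodes a channel that needs high ATP and is known from macrophages and glia. Its scaled signal was 136, 132, 154 and 135 in the apical arrays, 137, 112, 144 and 120 in the middle arrays, and 84.5, 73.8, 106.7 and 91.9 in the basal arrays. Every basal array lay below every apical and middle array, while apical and middle arrays overlapped. P2rx7 signal was 1.57-fold greater at the apex than at the base (log2 fold change 0.65, SE 0.11, limma adjusted p = 0.001, n = 4 per turn) and 1.45-fold greater in the middle turn than at the base (0.53, SE 0.11, limma adjusted p = 0.009). Under scaling to spike-in control probes both calls were lost, with log2 fold changes of 0.16 (adjusted p = 0.34) and 0.26 (adjusted p = 0.18). The apex and the middle turn differed by 0.12 (95% interval -0.13 to 0.37), which was not called.

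P2rx4, a channel of epithelia and macrophages, went the other way in steps. Its signal was 416, 450, 415 and 475 at the apex, 503, 481, 507 and 529 on the middle arrays and 576, 622, 554 and 620 at the base. No 2 turns overlapped. P2rx4 was 1.35-fold greater in the base than in the apex (log2 fold change -0.43, SE 0.062, limma adjusted p = 0.00028). The step from middle to base was -0.23 (SE 0.062, adjusted p = 0.021), and the step from apex to middle was -0.2 (SE 0.062, adjusted p = 0.056), just outside the threshold. The call between middle and base was lost without middle replicate 1 or 2 or basal replicate 2 or 4 (limma adjusted p from 0.053 to 0.068) and with the median of the probes in place of their mean (adjusted p = 0.11). In the GRCm38 gene table of RefSeq, P2rx7 and P2rx4 are direct neighbors on chromosome 5, with no protein-coding gene between them, yet their gradients ran in opposite directions. Camkk2, a calcium-dependent kinase gene that overlaps P2rx4 in that table, was also greater in the base than in the apex (log2 fold change -0.25, SE 0.054, limma adjusted p = 0.0038, 9 probes), and how far transcripts of one gene add to the probes of the other was not tested.

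P2rx2, the channel of the endolymph shunt described above, showed no called difference between any turns. Its signal was 548, 616, 611 and 621 at the apex, 508, 513, 577 and 565 on the middle arrays and 683, 496, 585 and 748 at the base. The basal arrays were the most spread and covered the range of the others. The difference between apex and base was -0.05 on the log2 scale, with a 95% interval of -0.3 to 0.19 (limma adjusted p = 0.76), so a difference of about the size seen for P2rx7 lies outside the interval. Middle and base differed by -0.2 (interval -0.45 to 0.05).

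**Figure D2:**
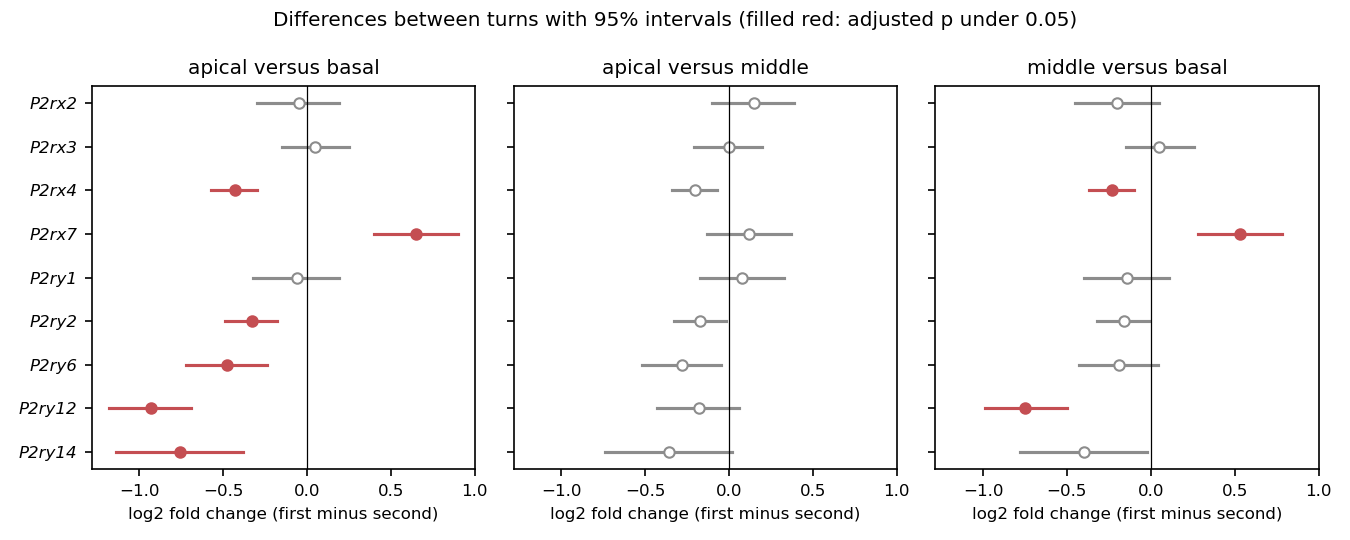
Log2 fold changes between turns (horizontal axis, first turn minus second) of the 9 receptors above background, with 95% intervals from limma; filled red points passed the adjusted threshold. In apical versus basal, P2rx7 at 0.65 lies right of 0 and the 5 called receptors on the left run from -0.33 to -0.93, whereas no receptor was called in apical versus middle.

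The exon probes gave the channel results a second look, although probes of 1 gene are read from the same RNA and are not replicates. Over the 56 receptor probes, 30 were called between apex and base, against 34.4% of all probes. All 15 P2rx7 probes were greater in the apex, with log2 fold changes from 0.16 to 0.86, and 14 of them were called. The largest, probe 7 at chr5:123113586-123113645 (mm9, plus strand), had mean signals of 93.1, 89.2 and 51.3 in apex, middle turn and base and is shown for that reason. Probe 3 was close behind, at 0.85, but was well above background on 7 of the 12 arrays and on 1 of the 4 basal arrays. Probes 8 and 10 were so on 9 and 11 arrays, and the other 12 P2rx7 probes on all 12.
P2rx7 probe 7: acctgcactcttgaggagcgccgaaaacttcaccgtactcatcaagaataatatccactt

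The exception was probe 14, near the end of the transcript, with signals of 811, 806 and 726. Its log2 fold change of 0.16 was not called (limma adjusted p = 0.097), and it differed from the mean of the other P2rx7 probes by -0.53 (adjusted p = 0.024), a test in which 10.4% of probes were called for this comparison. Probe 15, which the files list farther along the same transcript as probe 14, had a log2 fold change of 0.73 (adjusted p = 0.0015). All 12 P2rx4 probes were called greater in the base, from -0.56 to -0.24. P2rx4 probe 4 had the smallest of these differences and was the only P2rx4 probe to stand apart from the rest of its gene (by 0.21, adjusted p = 0.026). Of the 11 P2rx2 probes limma called 0 between apex and base, and 0 also at an unadjusted p under 0.05, and their differences ran from -0.18 to 0.06.

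**Figure D3:**
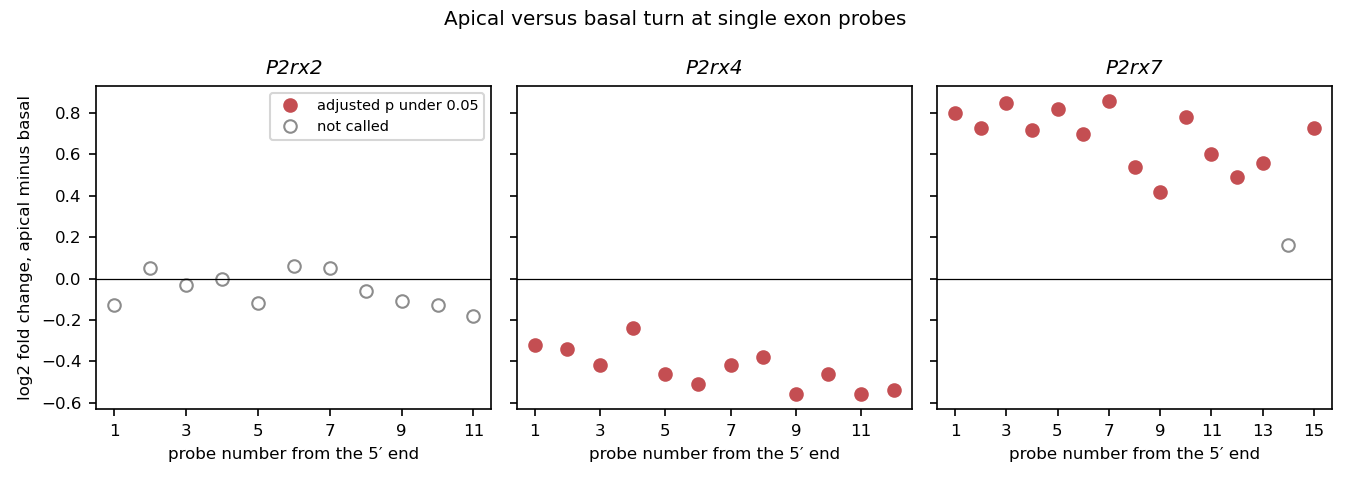
Log2 fold change between the apical and basal turn (vertical axis) for each probe of P2rx2, P2rx4 and P2rx7, numbered from the 5′ end (horizontal axis); filled points passed the adjusted threshold. P2rx2 probes lie near 0, the P2rx4 probes all lie below 0 and the P2rx7 probes above it, with P2rx7 probe 14 lowest at 0.16.

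P2rx3, a subunit known from sensory neurons that can pair with P2X2, could be read at few of its probes. Its gene mean, from 24.6 to 31.2 over all 12 arrays, differed by 0.05 between apex and base (95% interval -0.15 to 0.25), with a sign that turned under other scalings. Only 4 of its 12 probes (numbers 6, 9, 10 and 12) were well above background on all 12 arrays and 5 were so on none. Of these 4, numbers 6 and 10 shared a run of 18 bases with a probe of P2rx2 and number 9 a run of 14 bases with a probe of P2rx4, the longest such runs in the gene. The other 9 probes shared 8 to 11. Among them, number 8 shared 11 and was well above background on 10 of the 12 arrays, while numbers 3 and 11 also shared 11 and were so on none. Below, probe 6 (chr2:84863311-84863370) was well above background everywhere, and the next one, probe 7 (chr2:84862514-84862573, both mm9, minus strand), nowhere, with the longest run shared with a P2rx2 probe in capitals.
P2rx3 probe 6: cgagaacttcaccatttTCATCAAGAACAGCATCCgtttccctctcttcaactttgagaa
P2rx3 probe 7: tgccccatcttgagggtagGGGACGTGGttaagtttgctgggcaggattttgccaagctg

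Probe 12, the last of the gene, holds 5 tandem copies of GGTT, a repeat that (at 3 copies or more, on the probe strand) occurs in 4 of 165984 probes. Its mean signal was 611, 758 and 660 in apex, middle turn and base. In the RefSeq table, the gene Prg3 overlaps P2rx3. Whether the signal of these 4 probes came from P2rx3 transcripts was not tested. One further P2rx3 probe, number 3, was called in both comparisons with the middle turn while not well above background on any array.

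**Figure D4:**
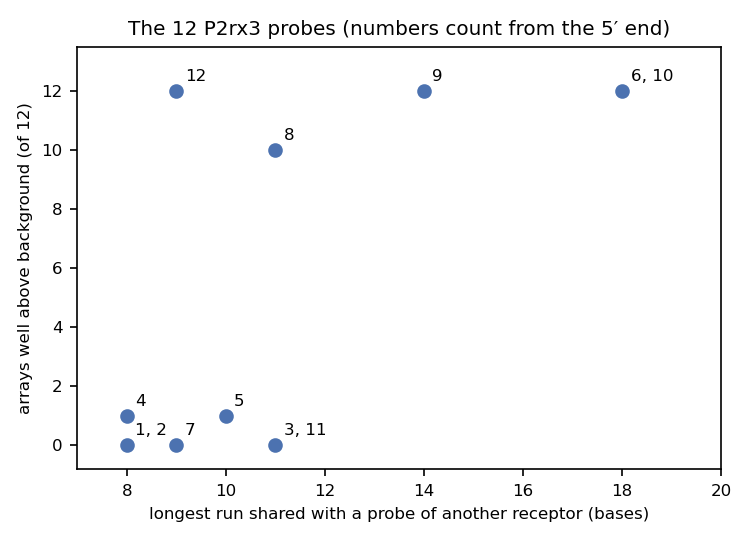
The 12 P2rx3 probes by the longest run of bases shared with a probe of another receptor (horizontal axis, bases) and the number of arrays on which they were well above background (vertical axis); labels are probe numbers. Probes 6, 9 and 10 combine runs of 14 to 18 bases with signal on all 12 arrays, and probe 12 has signal with a run of 9. Probe 8 has signal on 10 arrays with a run of 11.

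Among the P2Y receptors, the Gi-coupled pair showed the largest differences of the 10 genes between apex and base. P2ry12, the ADP receptor known from platelets and microglia, had signals of 65.4, 67.3, 58.4 and 73.3 at the apex, 68.3, 67.3, 87.1 and 78.1 on the middle arrays and 138, 141, 111 and 115 at the base. The basal arrays lay apart from all others, and the apical and middle arrays overlapped. P2ry12 was 1.91-fold greater in the base than in the apex (log2 fold change -0.93, SE 0.11, limma adjusted p = 9.6e-05) and 1.68-fold greater in the base than in the middle turn (-0.75, adjusted p = 0.0013). The size of the first difference exceeded that of 94.5% of all genes.

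P2ry14, which responds to UDP-glucose, had signals of 105, 102, 78.1 and 116 at the apex, 118, 145, 124 and 123 on the middle arrays and 154, 174, 127 and 233 at the base. Apical arrays lay below all others, and the basal arrays, the most spread, overlapped the middle arrays at 1 array. P2ry14 was 1.69-fold greater in the base than in the apex (log2 fold change -0.76, SE 0.17, limma adjusted p = 0.0047). Neither single step was called (-0.36 from apex to middle, adjusted p = 0.18, and -0.4 from middle to base, adjusted p = 0.12). In the RefSeq table P2ry14, P2ry13 and P2ry12 lie in a cluster on chromosome 3, all overlapped by Med12l. P2ry13, a further ADP receptor of this cluster, was greater in the base as well (1.53-fold, log2 fold change -0.61, SE 0.21, limma adjusted p = 0.037). It was read from 1 probe, and its apical and basal arrays overlapped. How far Med12l transcripts add to the probes of this cluster was not tested.

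The Gq-coupled receptors showed smaller differences. P2ry6, the UDP receptor, had signals of 406, 410, 319 and 453 at the apex, 439, 474, 484 and 522 on the middle arrays and 503, 627, 517 and 553 at the base. Apex and base did not overlap, the middle turn overlapped both, and P2ry6 was 1.39-fold greater in the base than in the apex (log2 fold change -0.48, SE 0.11, limma adjusted p = 0.0046). Its probe is printed at 10 spots, whose median SD within an array was 0.066 on the log2 scale.

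P2ry2, a receptor for ATP and UTP, lies next to P2ry6 on chromosome 7 with no protein-coding gene between them in the RefSeq table. Its signal was 2350, 2120, 2090 and 2380 at the apex, 2620, 2300, 2540 and 2620 on the middle arrays and 2660, 2810, 2690 and 3120 at the base. The basal arrays lay above all others, and P2ry2 was 1.26-fold greater in the base than in the apex (log2 fold change -0.33, SE 0.071, limma adjusted p = 0.0032). P2ry1, an ADP receptor, had signals of 475, 492, 534 and 562 at the apex, 420, 456, 566 and 518 on the middle arrays and 534, 448, 622 and 564 at the base. The turns overlapped, and apex and base differed by -0.06 (95% interval -0.32 to 0.19, adjusted p = 0.72).

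P2ry4, a UTP receptor, was not well above background on any array, with signals from 4.97 to 13.1, and no fold change is given for it.

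Between the apex and the middle turn, limma called 0 of the 10 receptors, against 12% of all genes, and the plain analysis of variance called 1 (P2rx4). At an unadjusted p under 0.05, 3 receptors (P2rx4, P2ry2 and P2ry6) had lower values at the apex, and P2rx4 and P2ry14 had arrays that did not overlap, against 20.8% of all genes. Between the middle turn and the base, 3 receptors were called, against 20.9%. P2rx7 was greater in the middle turn (11.6% of all genes were), and P2rx4 and P2ry12 were greater in the base (9.23%). Arrays of these turns did not overlap for these 3 and P2ry2, against 24.1% of all genes. Of the receptor probes, 4 were called between apex and middle (5.9% of all probes) and 15 between middle and base (13.8%), which became 0 without middle replicate 4 and 5 without basal replicate 2. The middle turn lay between the apex and the base in the mean of 7 of 10 receptors, P2ry4 at background included, and of 51.3% of all genes.

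The scaling of the arrays touches these directions. When arrays were scaled to spike-in control probes in place of the 75th percentile, the median of all genes moved to -0.53 between apex and base. This scaling moves all genes of an array by 1 amount, so distances between genes are fixed and only the position against 0 can change, as it did for P2rx7. P2rx2, P2ry1 and P2rx3, uncalled above, became called as lower in the apex (-0.55, -0.56 and -0.45), at -0.02, -0.03 and 0.09 from the median of all genes. The 5 receptors greater in the base kept that direction and their call in all 26 alternative settings.

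Other genes of extracellular nucleotide signaling were read from 6 lists with 51 genes, which were drawn up with earlier results of these data known. Between apex and base 22 were called (43.1%, against 39.2% of all genes), 7 greater in the apex and 15 in the base. Between apex and middle 6 were called (11.8%, against 12%), and between middle and base 18 (35.3%, against 20.9%). The count between apex and middle fell to 3 without apical replicate 2 or middle replicate 4. The count between middle and base fell to 11 without middle replicate 1.

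Among the 13 genes on the list of ectonucleotidases and related enzymes, 3 were greater in the apex and 4 in the base. The list, which includes Entpd4, Entpd5, Entpd6 and Entpd7, was not sorted by whether an enzyme acts outside the cell. Between these turns 17.6% and 21.6% of all genes were called in these directions. Entpd8 had mean signals of 41.5 at the apex and 90.6 at the base, which was 2.18-fold (log2 fold change -1.13, SE 0.12, limma adjusted p = 5.4e-05), and Enpp3 was 1.74-fold greater at the base (adjusted p = 0.00011). Entpd3 was 1.28-fold greater at the apex than in the middle turn (adjusted p = 0.0032), and Entpd2 was lower there by 1.2-fold (adjusted p = 0.03). Of the 4 receptors for adenosine, a product of ATP breakdown, Adora3 and Adora1 were greater in the base than in the apex. Adora3 differed by 2.11-fold (limma adjusted p = 1.9e-05), with 3 of 9 probes above background throughout some turn. Adora1 differed by 1.69-fold (limma adjusted p = 0.00071), with 2 of 4 such probes.

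Of the 10 genes for ATP release and storage, 2 were greater in the apex and 4 in the base, against 17.6% and 21.6% of all genes. Gjb6, the gap junction gene for connexin 30, was 1.71-fold greater in the base than in the apex (log2 fold change -0.77, SE 0.078, limma adjusted p = 3.2e-05), and Ank, an exporter of pyrophosphate and ATP, was 1.28-fold lower in the apex than in the middle turn (adjusted p = 0.0049). The pannexin genes Panx2 and Panx1 were greater in the middle turn than at the base, by 1.95-fold (adjusted p = 0.015) and 1.43-fold (adjusted p = 0.033). Of the 9 genes for adenosine uptake and removal, 2 were greater in the base than in the apex, against 21.6% of all genes, and none in the apex, and Adk, adenosine kinase, was also 1.25-fold lower in the apex than in the middle turn (adjusted p = 0.017). Plcb1, a phospholipase downstream of Gq, was 1.77-fold greater at the apex than the base (log2 fold change 0.83, SE 0.15, limma adjusted p = 0.0012). Of the 9 genes on its list of G proteins and effectors, 2 were greater in the apex and 2 in the base. The shares of all genes were again 17.6% and 21.6%.

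Among the other 6 P2 receptors on the lists, P2ry13 was the only gene called between apex and base. P2rx6, a channel subunit with 10 of 12 probes above background, was at 129 and 90.5 in apex and base, which was not called (log2 fold change 0.52, SE 0.22, limma adjusted p = 0.09). P2rx1 and P2rx5 had 1 of 12 and 2 of 13 probes above background, and P2ry10 and Gpr17 had none.

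Markers of cell types moved along the same axis and are given beside the receptors. Of 15 macrophage markers, 12 were greater in the base than in the apex and none in the apex, and their summed signal was 7984 to 10470 at the apex, 8481 to 9741 in the middle turn and 11540 to 14130 at the base. Between middle and base 10 of the 15 were greater in the base, against 9.23% of all genes. The macrophage, strial and spiral ligament fibrocyte sums were all greater in the base than in the apex without overlap. So were the signals of P2rx4, P2ry2, P2ry6, P2ry12 and P2ry14. The hair cell, neuron, Schwann cell and supporting cell sums were greater in the apex without overlap, as was P2rx7. Of all genes, 17.6% were called greater in the apex and 21.6% in the base, and arrays of these turns did not overlap in 38.3%. All 10 hair cell markers, 8 of 10 spiral ganglion neuron markers and 6 of 7 Schwann and satellite cell markers were greater in the apex, the direction of P2rx7, while 1 neuron marker was greater in the base. The neuron sum was 11660, 5849, 24990 and 8796 in the basal arrays, in order of replicate number. Strial markers were greater in the base in 7 of 8 genes, and spiral ligament fibrocyte markers in 4 of 5, with 1 greater in the apex and sums of 257000 to 282900 at the apex and 515400 to 585600 at the base. Of 8 supporting cell markers, 4 were greater in the apex and 2 in the base. Epyc alone made up most of their sum, with mean signals of 39000 at the apex and 11400 at the base. The direction of that sum therefore mainly reflects 1 gene. Each measured marker, except the platelet markers Gp1ba and Gp9, had at least 1 probe well above background throughout some turn. Of 16 macrophage and 8 Schwann and satellite cell symbols listed, 15 and 7 were measured. The part of the markers in the receptor results was not tested. The summed signal of neutrophil and marrow markers was 15120 and 34420 on apical replicates 2 and 4, against 721.5 to 8029 on the other 10 arrays, and the number of receptors called between apex and base stayed 6 without either array.

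**Figure D5:**
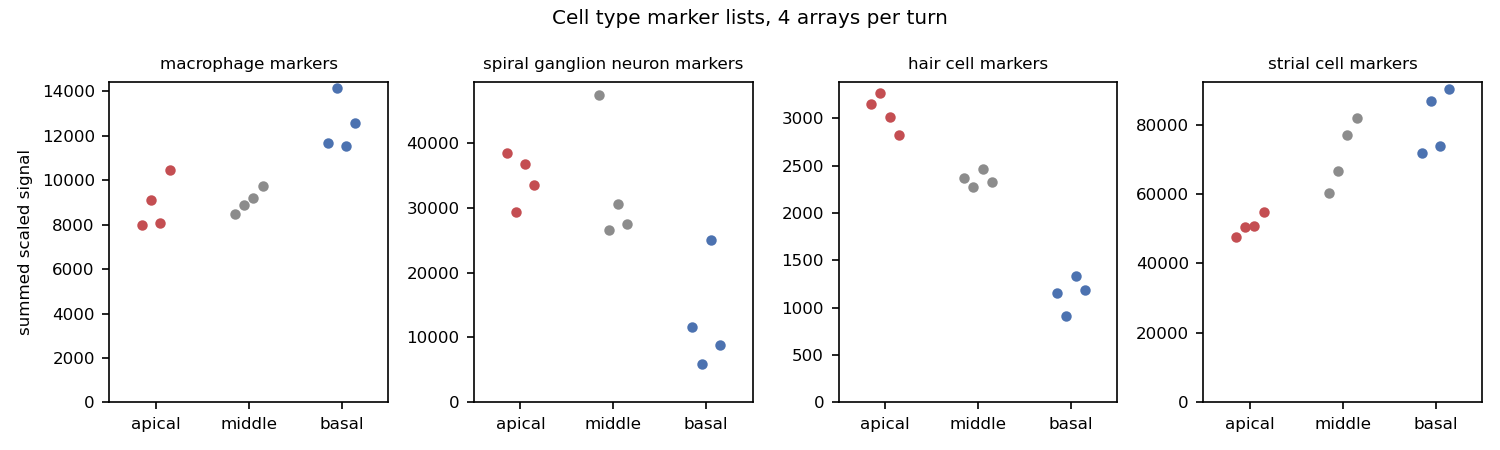
Summed scaled signal (vertical axis, from 0) of 4 marker lists on the 4 arrays of each turn. The macrophage sums of 11540 to 14130 in the base lie above all others, and the neuron, hair cell and strial sums differ between turns as well, with the basal neuron sums spread from 5849 to 24990.

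Genes whose log2 signal followed a receptor most closely over the 12 arrays were sought among 16009 genes above background, as a description. All 12 points share 3 scan dates, 1 per turn, and any gene with a step between turns scores high. P2rx7 was most like Kcnma1 (r = 0.986), the BK potassium channel gene, and Fbxl2 and Dffa (both 0.985), with 803 genes above 0.9. P2rx4 was most like Tspan32 (0.985), 6720456B07Rik (0.981) and the adenosine kinase gene Adk (0.98). P2ry12 was most like Stat5a (0.967), Adipor2 (0.964) and 2610507B11Rik (0.963), and P2ry14 was most like Commd1 (0.969), Ptrh2 (0.968) and Srp14 (0.957). P2ry2 was most like Sdhaf2 (0.981), and P2ry6 was most like Haus7 (0.978).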

How the data were processed

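Mouse cochlear turns were profiled on 60-base exon arrays. The deposited files hold spot intensity that the authors extracted from scans with Agilent Feature Extraction 10.7.3.1, background-subtracted and not normalized between arrays. The deposited value table held the same numbers. From these, 622 spots flagged on any array were left out of 172966 that are not controls, which kept 165865 of 165984 probes. Each array was scaled to the median of the 75th percentiles (534 to 721.6 before scaling). Log2 signals were averaged over spots, then over the probes of a gene name. A probe was well above background on an array when more than 0.5 of its spots carried that flag, as 77.4% to 81.4% of spots per array did. The precision of a mean is limited by 4 arrays per turn. The turns were compared with limma 3.58.1 (R 4.3.3, lmFit, eBayes) in 1 fit of the 12 arrays, adjusting p-values by Benjamini and Hochberg's method over 19505 genes, or over all probes, and a gene was called at an adjusted p under 0.05. In a further probe test each probe was compared with the mean of the other probes of its gene. The fit was tested on simulated data in which genes were moved at the apex. Between apex and base it called 51% of genes moved by 0.5 on the log2 scale and 87% of those moved by 1. Between apex and middle the shares were 49% and 89%. Probe positions are those of the files (mm9), and neighboring genes were taken from RefSeq (GRCm38.p6), where 10 members matched by symbol.

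The 10 members, the pathway lists and the marker lists were chosen with earlier results of these data known. All receptors were named, with up to 6 pathway genes per comparison by size among those called without overlap between arrays, and the 3 likest genes by Pearson r for each receptor past the F test (the first only for P2ry2 and P2ry6). Other genes were named as neighbors of members after their values were seen. Alternatives changed scaling, background, probe filter and summary, test, replicate block and arrays. The labels do not tie replicate numbers to animals, and the arrays were not treated as pairs. Deviations of same-number arrays correlated at -0.037 to 0.23 (mean 0.096, 6 of 12 over 0.1). For different numbers the mean was -0.032, with 2 of 36 over 0.1. Same-number arrays were thus more alike on average, and whether they share a mouse remains unsettled.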

Additional observations from a re-analysis of the deposited data

Results flagged for a closer look

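Within a turn, the gap of 1 array to the nearest other was divided by the range of the 4 arrays, both on the log2 scale. This ratio was compared with Dixon's critical value of 0.829 in 63 groups of receptor signals and marker sums. In 3 of these the value was exceeded, and chance gives about 5%. The P2rx2 signal of apical replicate 1 was 548, against 611 to 621 on the other apical arrays. The summed signal of Schwann and satellite cell markers was 17300 on middle replicate 1, against 14400 to 14700 on the others. The summed signal of supporting cell markers was 13800 on basal replicate 3, against 14900 to 15200, with a ratio of 0.83 that barely passed.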

How the results depend on the processing

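The 9 called receptor differences kept their direction and call in 227 of 234 recomputed values, and none changed sign. The 7 that lost the call were P2rx7 under spike-in scaling (0.16 between apex and base, and 0.26 between middle and base with adjusted p = 0.18) and P2rx4 between middle and base with the median of probes (-0.22, adjusted p = 0.11) or without middle replicate 1, middle replicate 2, basal replicate 2 or basal replicate 4 (limma adjusted p = 0.053, 0.059, 0.068 and 0.06). The F test of P2ry2 missed the threshold after quantile normalization (adjusted p = 0.078), and that of P2rx7 under spike-in scaling (0.28). P2rx4 between apex and middle, not called above, passed in 11 of 26 settings. The cause of these changes was not tested. The signal of P2ry4 was too close to background to be used under the filter on dim probes.

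Uncalled differences that changed sign were all small or under spike-in scaling. P2rx3 turned to -0.1 (apical versus basal), 0.02 (apical versus middle) and -0.11 (middle versus basal) after quantile normalization, to -0.07 and -0.01 (apical versus basal, middle versus basal) with scaling to the median, to -0.05 with normexp correction, to -0.03, 0.08 and -0.11 with only probes well above background, to 0.02 with 16 added, to 0.1 with the median of probes and to -0.06 with the mean linear signal. Under spike-in scaling P2rx3 turned to -0.45 and -0.22 (from apex and middle to base), and P2rx2, P2rx7 and P2ry1 between apex and middle turned to -0.08, -0.1 and -0.14. With 1 array left out, P2rx3 turned to 0 (apical versus basal, and middle versus basal) or to between 0.03 and 0.05 (apical versus middle), P2ry1 (apical versus basal) to 0.01 without basal replicate 3, within a range of -0.15 to 0.01, and P2rx2 to 0.04 without basal replicate 4, within a range of -0.16 to 0.04.

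Of the counts, the number of receptors called between apex and base ran from 6 to 9 over the alternatives. Between apex and middle it was 1 in place of 0 with quantile normalization, scaling to the median, normexp correction, only probes well above background, 16 added, the mean linear signal, the plain analysis of variance, limma's trend and robust options or without apical replicate 4, and 4 under spike-in scaling, which gave 6 in place of 3 between middle and base. Receptor probes called between apex and middle (4) became 12 under spike-in scaling, 7 with the trend and robust options and 0 to 6 with 1 array left out (lowest without middle replicate 4), and between middle and base (15) became 28 under spike-in scaling and 5 to 19 with 1 array left out (lowest without basal replicate 2). The pathway counts of 22, 6 and 18 became 36 and 22 under spike-in scaling (apical versus basal, apical versus middle), 3 with the median of probes and 3 to 7 with 1 array left out (apical versus middle), and 11 to 18 (middle versus basal, lowest without middle replicate 1). All genes called were 7645, 2346 and 4070, and 15217, 8301 and 7348 under spike-in scaling. Apical versus middle gave 3542 with scaling to the median and 965 to 3536 with 1 array left out (lowest without apical replicate 2), and middle versus basal gave 2656 to 4755 (lowest without basal replicate 2). Of all genes, 44.6% were higher at the apex than the base, and 36.7%, 30.1% and 9.68% with quantile normalization, scaling to the median and spike-in scaling.

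With the replicate number as a block, apical versus middle gave 1 receptor (P2rx4, adjusted p = 0.031), 10 pathway genes, 9 receptor probes and 3322 genes, and the block changed no other receptor call. Of the 12 arrays, 4 correlated best with their own number in both other turns, which does not settle whether equal numbers share a mouse. Each P2Y receptor rests on a single probe, and P2rx3 on few probes above background.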
